A study of Mus musculus with 11 samples.

Results

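The long terminal repeats (LTRs) of intracisternal A particles (IAPs) were followed copy by copy and subfamily by subfamily in whole testes of 4 genotypes. A copy was included when its subfamily name in the deposited table of transposable element (TE) copies begins with IAPLTR and when it had a value above 0 in at least 1 library. This rule kept 2880 of the 11429 annotated IAPLTR copies, out of 578629 TE copies above 0 and 3725827 TE copies in the table. Of the 2880, 2748 belong to 8 LTR subfamilies and 132 to IAPLTR3-int and IAPLTR4_I, which share the prefix but name internal sequences. Poly-A RNA of testes from C57Bl6/J mice at postnatal day 5 had been sequenced in 11 libraries, namely 2 of wild-type (WT), 3 labelled Dnmt3CKO/KO (Dnmt3C KO), 3 labelled Nrf1KO/KO (Nrf1 cKO) and 3 labelled Dnmt3CKO/KO, Nrf1KO/KO (dKO). By the study's methods 1 Nrf1 allele is floxed and deleted by Ddx4-Cre, which acts in germ cells, and the other allele is a knockout. The somatic cells of Nrf1 cKO and dKO testes therefore keep NRF1 from the floxed allele, whereas the Dnmt3C mutation is carried by all cells. Sample titles name germ cells, but the cell type label of every library is spermatogonia with somatic cells and the study's text names whole testes, and controls were littermates where possible. The study calls its replicates biological, and the labels only number them, so that p-values measure the spread between these libraries.

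IAPs are murine endogenous retroviruses of the ERVK class. Each full copy carries an internal coding region between a pair of LTRs, the upstream LTR holds the promoter, and recombination between the pair leaves a solitary LTR behind. In male germ cells, promoters of young retrotransposons are methylated by DNMT3C with the piRNA pathway, and NRF1 is a transcription factor that binds a GC-rich palindrome when its CpGs are unmethylated. The comparisons address how much LTR-containing RNA is present without DNMT3C, and how much of it remains when germ cells also lack NRF1.

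The LTR sequences are shown first, because the promoter region of the LTR is where methylation and NRF1 would meet. Reference sequence was taken from RefSeq promoter windows on GRCm38.p6, which overlap 47 of all annotated LTR copies, including copies without a read. Sequences are printed along the LTR strand. Capitals mark the match to the 10-base NRF1 palindrome with 1 mismatch and, in IAPLTR1a_Mm, also the cAMP response element TGACGTCA.
IAPLTR1_Mm, chr7:4460447-4460702, minus strand, 5′ LTR at the start of Eps8l1: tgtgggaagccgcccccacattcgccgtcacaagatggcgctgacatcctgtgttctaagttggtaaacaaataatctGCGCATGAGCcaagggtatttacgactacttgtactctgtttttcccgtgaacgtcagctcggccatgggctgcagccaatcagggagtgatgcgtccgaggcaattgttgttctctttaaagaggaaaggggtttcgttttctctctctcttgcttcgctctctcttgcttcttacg
IAPLTR1a_Mm, chr14:123631880-123632140, plus strand, beside Gm46490: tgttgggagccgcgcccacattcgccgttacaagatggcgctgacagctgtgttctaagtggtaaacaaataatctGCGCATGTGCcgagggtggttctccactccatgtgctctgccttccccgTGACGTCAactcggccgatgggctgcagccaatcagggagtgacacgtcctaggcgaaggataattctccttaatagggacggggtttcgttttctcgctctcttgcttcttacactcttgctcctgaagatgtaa
IAPLTR2_Mm, chr10:99608921-99609220, minus strand, isolated LTR over an exon of Gm20110: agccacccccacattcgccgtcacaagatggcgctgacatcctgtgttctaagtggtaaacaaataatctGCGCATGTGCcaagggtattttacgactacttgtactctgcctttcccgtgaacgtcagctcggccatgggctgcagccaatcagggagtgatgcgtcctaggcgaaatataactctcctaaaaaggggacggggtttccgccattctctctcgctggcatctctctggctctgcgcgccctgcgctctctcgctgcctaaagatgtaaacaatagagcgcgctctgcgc
IAPLTR2_Mm, chr19:5406565-5406822, minus strand, isolated LTR beside 4930481A15Rik: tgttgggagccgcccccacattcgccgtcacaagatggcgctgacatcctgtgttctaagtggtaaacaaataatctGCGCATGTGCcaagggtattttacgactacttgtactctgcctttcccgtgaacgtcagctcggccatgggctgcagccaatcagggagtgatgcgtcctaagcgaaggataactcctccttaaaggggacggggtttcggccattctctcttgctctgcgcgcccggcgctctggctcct
IAPLTR2a, chr1:113145271-113145562, plus strand, the last 292 bases of an LTR beside Gm46244: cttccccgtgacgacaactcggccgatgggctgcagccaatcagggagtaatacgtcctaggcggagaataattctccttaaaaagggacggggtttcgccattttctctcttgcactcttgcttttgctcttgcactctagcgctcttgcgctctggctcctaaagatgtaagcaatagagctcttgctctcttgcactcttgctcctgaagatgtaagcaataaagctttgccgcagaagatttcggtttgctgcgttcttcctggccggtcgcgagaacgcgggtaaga

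In the 4 copies whose window reaches it, the match starts between LTR positions 77 and 79, counted from 1 at the LTR's 5′ end. The site reads GCGCATGAGC in the IAPLTR1_Mm copy and GCGCATGTGC in the other 3, and against the palindrome the IAPLTR1_Mm copy carries C8A and the IAPLTR1a_Mm and both IAPLTR2_Mm copies carry C8T, with motif positions counted from 1. Both motifs read the same on either strand. Among the 22 windows that cover LTR positions 60 to 110, 14 held the palindrome with at most 1 mismatch and 0 held it exactly. Wherever they lie on the LTR, 16 of all 47 windows held it with at most 1 mismatch and 0 exactly. Of all 32851 promoter windows, each of 300 bases, 6.33% held it with at most 1 mismatch and 0.971% exactly. By subfamily the 14 were 4 of 4 windows of IAPLTR1_Mm, 2 of 2 of IAPLTR1a_Mm, 4 of 5 of IAPLTR2_Mm, 3 of 3 of IAPLTR2b and 1 of 3 of IAPLTR4, against 0 of 2 of IAPLTR2a2_Mm and 0 of 3 of IAPLTR3. No IAPLTR2a window covered these positions, and the printed one begins at LTR position 97. The response element TGACGTCA, a site of CREB and ATF factors, was found in 6 of 28 windows over LTR positions 110 to 150, which were 4 of 6 of IAPLTR1_Mm and 2 of 2 of IAPLTR1a_Mm, and in 1.79% of all promoter windows. A match is a description of these letters only, and the windows are those that happen to lie at annotated gene starts. Many of them lie on copies without a read, outside the 2880 followed here. They cover 9 to 300 bases of related copies, so their shares are not like for like with those of whole promoter windows.

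The libraries held 26063590 to 39365841 counts on genes and TE subfamilies and 525115 to 1071134 reads on TE copies, so that 1 read on an LTR of 400 bases was worth 0.419 to 0.992 TPM. CPM (counts scaled to library size) of Nrf1 were 56.5 and 57.7 in WT, 52.0 to 57.7 in the Nrf1 cKO libraries and 57.1 to 61.2 in dKO, and those of Dnmt3c were 4.12 and 4.84 in WT, 2.98 to 4.53 in Dnmt3C KO and 3.50 to 4.97 in dKO. Somatic cells keep only the floxed Nrf1 allele, yet the Nrf1 values of Nrf1 cKO and dKO were near those of WT. Whether the deleted Nrf1 alleles still give reads was not tested. The deleted part of Dnmt3C is not given in the sources used here, and Dnmt3c reads may be split with its close relative Dnmt3b. These gene counts therefore do not check the genotype labels. All 18 germ cell markers were measured, and their summed CPM was 649 and 485 in WT, 558 to 827 in Dnmt3C KO, 277 to 387 in the Nrf1 cKO libraries and 307 to 550 in dKO. Every Nrf1 cKO library was thus below both WT libraries. Dmrt1, which Sertoli cells also make, gave 92.6 to 167 CPM of these sums with a log2 fold change of 0.09 ± 0.27 in Nrf1 cKO over WT, while Dazl had -1.65 ± 0.28 and Ddx4 -1.32 ± 0.30 (edgeR adjusted p 0.996, 0.395 and 0.647), and the mean log2 CPM of the markers, on which scaling to equal markers rests, was 4.35 and 3.87 in WT and 2.49 to 3.47 in Nrf1 cKO. The germ cell gene Rhox13 was at 0 in 1 Nrf1 cKO library. Markers of red blood, Leydig, Sertoli, endothelial and peritubular cells and of macrophages were present in every library as well, with the exception of Cd163. Red blood cell markers summed to 653 and 2112 CPM in WT, 548 to 780 in Dnmt3C KO, 308 to 1765 in the Nrf1 cKO libraries and 263 to 780 in dKO, and WT replicate 2 and Nrf1 cKO replicate 2 (1765) stood apart. In Dnmt3C KO over WT the haemoglobin genes Hba-a1 and Hbb-bt had log2 fold changes of -1.24 ± 0.38 and -1.41 ± 0.42 (edgeR adjusted p 0.788 each) and the Leydig cell hormone gene Insl3 0.97 ± 0.18 (adjusted p 0.302). In bulk tissue, fewer germ cells and less RNA per germ cell cannot be told apart.

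How many LTRs of a subfamily were transcribed differed widely. IAPLTR1_Mm had 710 of 1492 copies above 0 (47.6%), IAPLTR2_Mm 688 of 1388 (49.6%) and IAPLTR2a 285 of 627 (45.5%), against 421 of 1786 for IAPLTR1a_Mm (23.6%), 313 of 1541 for IAPLTR2a2_Mm (20.3%), 249 of 1017 for IAPLTR2b (24.5%), 57 of 663 for IAPLTR4 (8.60%) and 25 of 959 for IAPLTR3 (2.61%). Libraries with high values weigh on these shares. In WT replicate 1, 143 IAPLTR1_Mm, 105 IAPLTR2_Mm and 41 IAPLTR2a copies were read, and 76 IAPLTR1a_Mm, 67 IAPLTR2a2_Mm and 44 IAPLTR2b copies. In Dnmt3C KO replicate 1 these were 342, 404 and 145, and 113, 81 and 95. Most copies were sparsely read, since the median LTR copy had 3 reads over all 11 libraries, 852 copies had a single read and 405 had 20 or more. In the GENCODE M21 annotation, 1946 copies are intergenic, 811 lie in introns, 522 of them antisense to the gene, and 123 overlap exons.

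The subfamilies also differ in structure. Of the annotated copies of IAPLTR1_Mm, 4.29% had no IAP internal sequence within 50 bases, and of IAPLTR1a_Mm 7.39%, whereas the share was 41.6% in IAPLTR2_Mm, 54.5% in IAPLTR2a, 45.0% in IAPLTR2a2_Mm and 57.4% in IAPLTR2b. Copies without such a neighbour are called isolated LTRs here, and the others provirus-flanking LTRs. Among copies above 0, 32 of 710 IAPLTR1_Mm copies and 368 of 688 IAPLTR2_Mm copies were isolated. Reads were concentrated, and the 10 most read copies of a subfamily took 39.4% of the reads of IAPLTR1_Mm, 35.4% of IAPLTR2_Mm, 37.3% of IAPLTR2a and 66.2% of IAPLTR2b.

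IAPLTR1_Mm, the LTR of young IAPEz proviruses, had 38.7 and 25.1 CPM in WT, 111, 68.6 and 67.1 in Dnmt3C KO, 22.4, 32.9 and 26.9 in the Nrf1 cKO libraries and 82.3, 30.0 and 52.8 in dKO. All Dnmt3C KO libraries were above both WT libraries, and the dKO libraries spread from near WT to inside the Dnmt3C KO range. IAPLTR2_Mm, most of whose copies above 0 are isolated, had 17.3 and 23.9 CPM in WT and 89.4, 55.1 and 60.3 in Dnmt3C KO. It had 13.9, 22.4 and 14.2 in the Nrf1 cKO libraries and 56.8, 24.2 and 18.0 in dKO. Here 2 of 3 dKO libraries lay near the WT values and dKO replicate 1 lay just above the lowest Dnmt3C KO library. IAPLTR2a had 4.42 and 5.29 CPM in WT, 18.4, 11.1 and 13.1 in Dnmt3C KO, 1.99, 3.76 and 2.51 in the Nrf1 cKO libraries and 10.5, 5.07 and 4.59 in dKO. For IAPLTR2a the groups were ordered without overlap, except between dKO and WT. IAPLTR1a_Mm had 11.3 and 11.1 CPM in WT, 16.9, 12.4 and 14.5 in Dnmt3C KO, 9.92, 10.7 and 14.03 in the Nrf1 cKO libraries and 15.1, 12.99 and 12.7 in dKO. Its values moved least of the 4, although each Dnmt3C KO library was still above both WT libraries.

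**Figure D1:**
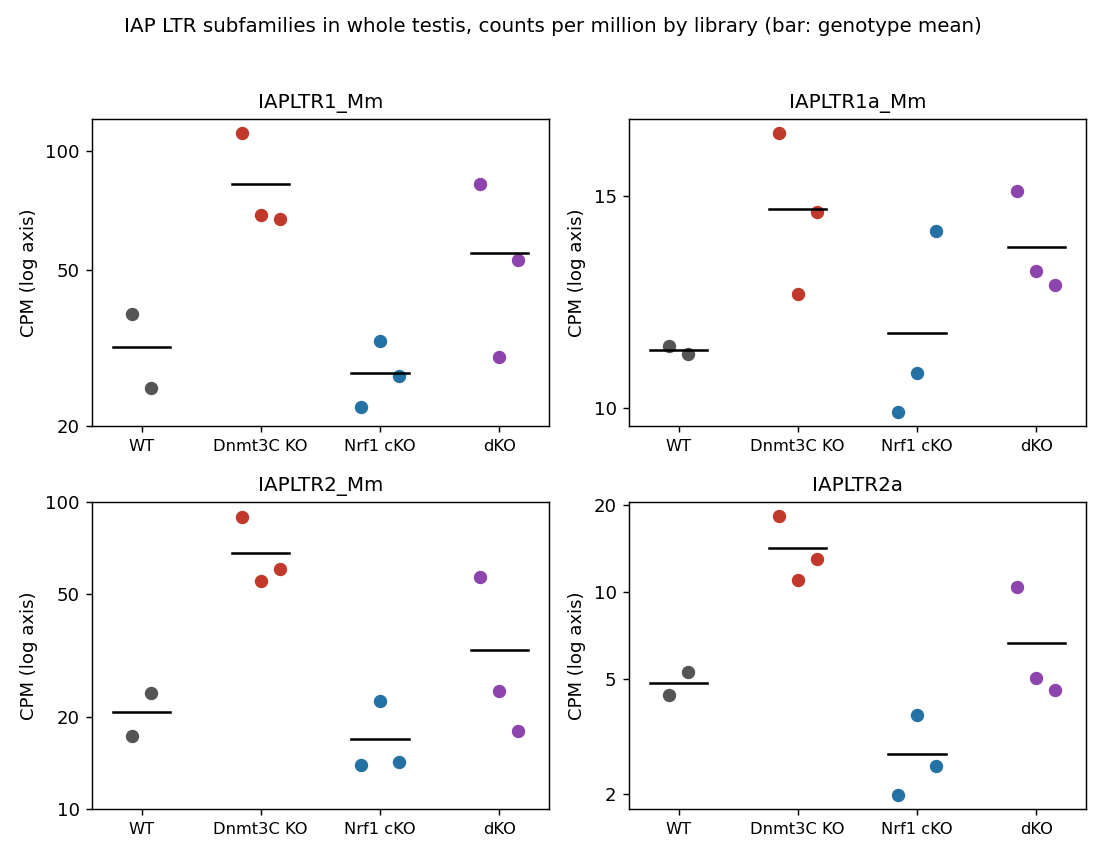
CPM of IAPLTR1_Mm, IAPLTR1a_Mm, IAPLTR2_Mm and IAPLTR2a in each library, on log axes, grouped by genotype, with a bar at the genotype mean. Dnmt3C KO libraries lie above both WT libraries in each panel, and IAPLTR2a in dKO, at 4.59 to 10.5, lies below its Dnmt3C KO range of 11.1 to 18.4.

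Without DNMT3C, IAPLTR2_Mm was 3.28-fold, IAPLTR2a 2.90-fold and IAPLTR1_Mm 2.56-fold higher than in WT, and the other subfamilies differed by less. The edgeR log2 fold changes were 1.71 ± 0.23 (SE) for IAPLTR2_Mm, 1.54 ± 0.26 for IAPLTR2a and 1.35 ± 0.26 for IAPLTR1_Mm, with adjusted p of 0.205, 0.266 and 0.302, so none passed the threshold of 0.01. In this comparison edgeR called 0 of 21664 genes and TE subfamilies (0%), while 3 of the 10 IAPLTR subfamilies, these same ones, had an unadjusted p under 0.05 in the higher direction, against 1.93% of all 880 TE subfamilies tested. DESeq2 called the same 3 at its adjusted p of 0.01, with 0.0774% of all features called. IAPLTR2b followed with 0.50 ± 0.23 (adjusted p 0.893) and IAPLTR1a_Mm with 0.37 ± 0.20 (adjusted p 0.924), and IAPLTR2a2_Mm was level at -0.01 ± 0.25. Without WT replicate 2, whose red blood cell markers were high, the values were 1.98 for IAPLTR2_Mm, 1.68 for IAPLTR2a and 1.09 for IAPLTR1_Mm. Every Dnmt3C KO library was above both WT libraries in 5 of 10 subfamilies, IAPLTR1_Mm, IAPLTR1a_Mm, IAPLTR2_Mm, IAPLTR2a and IAPLTR2b, against 3.52% of all TE subfamilies, and below both in IAPLTR3 and IAPLTR3-int, against 39.5%. The median log2 fold change was 0.25 over the 10 subfamilies and -0.34 over all TE subfamilies.

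With Nrf1 deleted alone, 8 of the 10 subfamilies had lower counts than in WT, and IAPLTR1a_Mm and IAPLTR4_I did not. The log2 fold changes of Nrf1 cKO over WT were -0.24 ± 0.24 for IAPLTR1_Mm, -0.31 ± 0.26 for IAPLTR2_Mm and -0.83 ± 0.35 for IAPLTR2a, the last with an unadjusted p of 0.0412 and an adjusted p of 0.852. IAPLTR3, a sparsely read subfamily, was also lower, at -1.96 ± 0.76 (adjusted p 0.847). These were the only 2 of 10 with an unadjusted p under 0.05, in a comparison in which 28.4% of all TE subfamilies were lower at that level and their median log2 fold change was -0.56. No feature was called by edgeR (0%). DESeq2 called 0 IAPLTR subfamilies here and in the other 3 pairwise comparisons, with 0.082% of all features called in Nrf1 cKO over WT, 0.0249% in dKO over Nrf1 cKO, 0.0585% in dKO over Dnmt3C KO and 0.0125% in dKO over WT. The lower germ cell marker sums stand beside this comparison, and with each library scaled so that germ cell markers were equal the values turned to 1.12, 0.97 and 0.48 for IAPLTR1_Mm, IAPLTR2_Mm and IAPLTR2a. That scaling shifts all features of a library alike, and the median gene moved by 1.25. It therefore leaves the position of the LTRs relative to genes unchanged, and that position does not test germ cell content. The direction also turned on the TPM scale, which is relative to all TE copies of a library, with 0.40 for IAPLTR1_Mm and 0.27 for IAPLTR2_Mm, while IAPLTR1a_Mm went from 0.03 to 0.66 and IAPLTR2a (-0.22) and IAPLTR3 (-1.22) stayed lower. Without Nrf1 cKO replicate 2, whose red blood cell markers were high, the count values were -0.40 for IAPLTR1_Mm, -0.57 for IAPLTR2_Mm and -1.13 for IAPLTR2a.

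The order of genotype means was not counted over all TE subfamilies, and some means were close. In IAPLTR2a2_Mm they were 5.48 CPM in Nrf1 cKO, 5.49 in dKO and 6.31 in Dnmt3C KO. In the dKO, the mean CPM was between those of the single mutants in 8 of the 10 subfamilies, and below both in IAPLTR4 and IAPLTR4_I. Over Nrf1 cKO, IAPLTR2a was 2.43-fold, IAPLTR1_Mm 2.01-fold and IAPLTR2_Mm 1.96-fold higher, with log2 fold changes of 1.28 ± 0.38, 1.01 ± 0.32 and 0.97 ± 0.39 and edgeR adjusted p of 1.00 each. Their unadjusted p were 0.00825, 0.0101 and 0.0330, in a comparison in which 9.67% of all TE subfamilies were higher at a p under 0.05. Summed germ cell markers were 307 to 550 CPM in dKO and 277 to 387 in Nrf1 cKO, and with scaling to equal markers the values were 0.44, 0.30 and 0.08, while the median gene moved to -0.64. Against Dnmt3C KO, IAPLTR2a was lower by 1.08 ± 0.32 on the log2 scale, a level 0.473-fold that of Dnmt3C KO, and IAPLTR2_Mm by 1.05 ± 0.37, or 0.483-fold, both with an adjusted p of 0.675. These 2 of 10 had an unadjusted p under 0.05 (0.00795 and 0.0188), which only 0.47% of all 851 TE subfamilies reached in that direction, and 3.17% in the other. IAPLTR1_Mm was lower by 0.58 ± 0.33 (adjusted p 0.682) with overlapping groups, and IAPLTR1a_Mm by 0.10 ± 0.16. All 3 dKO libraries were below all 3 Dnmt3C KO libraries in IAPLTR2a alone of the 10, as in 0.94% of all TE subfamilies, and above them in none, against 8.46%.

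Library dKO replicate 1 weighed on these values. Without it, IAPLTR2_Mm in dKO over Dnmt3C KO went from -1.05 to -1.71 and in dKO over Nrf1 cKO from 0.97 to 0.32. Scaling to equal germ cell markers gave -0.35 for IAPLTR2_Mm, -0.32 for IAPLTR2a and 0.29 for IAPLTR1_Mm in dKO over Dnmt3C KO, where the median gene moved by 0.85. How much of the lower LTR level in dKO goes with the lower germ cell marker sums was not tested. Between dKO and WT the log2 fold changes were 0.78 ± 0.37 for IAPLTR1_Mm, 0.66 ± 0.42 for IAPLTR2_Mm and 0.45 ± 0.38 for IAPLTR2a, with 0 called and 0.79% of all TE subfamilies higher at an unadjusted p under 0.05 and 1.47% lower, which 0 of the 10 reached. The difference between the effect of Dnmt3C loss with and without Nrf1, tested as an interaction over all 11 libraries, was -0.75 ± 0.54 for IAPLTR2_Mm, -0.35 ± 0.48 for IAPLTR1_Mm and -0.26 ± 0.51 for IAPLTR2a (adjusted p 0.912, 0.940 and 0.960). The median of this difference over all TE subfamilies was 0.68, in the other direction.

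**Figure D2:**
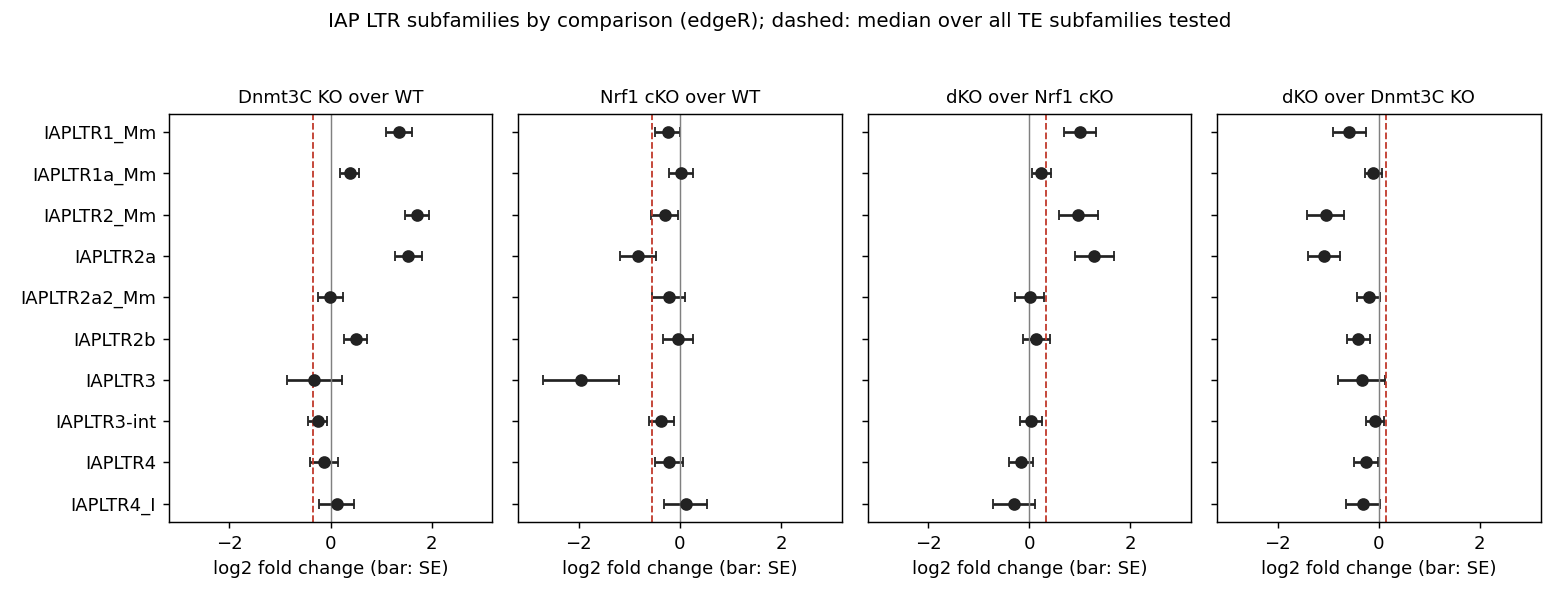
Log2 fold changes of the 10 IAPLTR subfamilies in 4 pairwise comparisons from edgeR, with standard error bars, and a dashed line at the median of all TE subfamilies tested. IAPLTR2_Mm, IAPLTR2a and IAPLTR1_Mm stand to the right of the line in Dnmt3C KO over WT, at 1.71, 1.54 and 1.35, and IAPLTR3 has no point in dKO over Nrf1 cKO because it did not pass the filter on low counts.

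The remaining subfamilies are given by their ranges over the 11 libraries. IAPLTR2a2_Mm lay between 3.74 and 6.98 CPM, IAPLTR4 between 3.95 and 6.43, IAPLTR4_I between 2.02 and 5.85 and IAPLTR3-int between 8.33 and 13.2, and none of these 4 had a p under 0.05 in any pairwise comparison. Among the elements that share these proviruses, IAPEz-int, the internal sequence of the commonest IAP, had 370 and 271 CPM in WT, 593 to 1008 in Dnmt3C KO, 246 to 332 in the Nrf1 cKO libraries and 354 to 761 in dKO. IAPA_MM-int had 3.77 and 2.48 CPM in WT, 9.44 to 22.3 in Dnmt3C KO, 2.27 to 3.63 in Nrf1 cKO and 4.68 to 16.3 in dKO. In the same order IAP1-MM_I-int had 21.2 and 24.3, 30.8 to 58.4, 5.97 to 11.9 and 18.9 to 38.5. Its log2 fold change in Nrf1 cKO over WT was -1.46 ± 0.29 (edgeR adjusted p 0.556). As a share of IAPEz-int counts in the same library, IAPLTR1_Mm stayed between 8.48% and 11.9% in all 11 libraries, whereas IAPLTR1a_Mm was 3.05% and 4.08% in WT, 1.68% to 2.45% in Dnmt3C KO, 3.23% to 4.53% in Nrf1 cKO and 1.99% to 3.67% in dKO.

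In IAPLTR2_Mm most of the excess in Dnmt3C KO was in isolated LTRs. The 368 isolated IAPLTR2_Mm copies together had 5.16 and 6.85 CPM in WT, 52.3, 29.8 and 32.7 in Dnmt3C KO, 5.18, 5.20 and 4.28 in the Nrf1 cKO libraries and 31.7, 10.0 and 5.41 in dKO. Their Dnmt3C KO level was 6.32-fold that of WT, a log2 fold change of 2.66 ± 0.27 with an edgeR adjusted p of 0.0226. The 320 provirus-flanking copies of the same subfamily had 11.3 and 16.3 CPM in WT, 33.9, 23.3 and 24.98 in Dnmt3C KO, 7.90, 16.2 and 9.17 in the Nrf1 cKO libraries and 22.4, 12.6 and 11.2 in dKO, a 1.97-fold difference between Dnmt3C KO and WT (0.98 ± 0.22, adjusted p 0.535). Isolated copies thus held 31.4% and 29.6% of IAPLTR2_Mm reads in WT, 56.1% to 60.7% in Dnmt3C KO, 24.3% to 39.6% in Nrf1 cKO and 32.5% to 58.6% in dKO. The ratio of isolated to flanking reads was 3.12-fold higher in Dnmt3C KO than in WT, with no overlap and an exact two-sided permutation p of 0.2 (3 and 2 libraries), which is the smallest this design allows, and an adjusted p of 0.444 over the 20 comparisons of such ratios. This division was chosen after the values were seen.

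In IAPLTR2a and IAPLTR2b, at lower counts, isolated copies were also further from WT than flanking copies. The 184 isolated IAPLTR2a copies had 2.86 and 2.42 CPM in WT, 13.1, 7.87 and 10.0 in Dnmt3C KO, 0.827, 1.79 and 1.97 in the Nrf1 cKO libraries and 6.81, 3.14 and 2.57 in dKO, and were 3.87-fold higher in Dnmt3C KO than in WT (1.95 ± 0.29, adjusted p 0.178). Its 101 flanking copies were 1.84-fold higher (0.88 ± 0.42, adjusted p 0.893). Isolated copies already held 73.3% and 51.6% of IAPLTR2a reads in WT, against 75.0% to 80.9% in Dnmt3C KO, and the ratio of isolated to flanking reads was 2.00-fold higher (exact permutation p 0.2, n = 3 and 2, adjusted p 0.444). In IAPLTR2b the 173 isolated copies had 2.25 and 2.93 CPM in WT, 6.90, 4.92 and 6.38 in Dnmt3C KO, 1.78, 1.79 and 2.78 in the Nrf1 cKO libraries and 5.14, 2.86 and 1.54 in dKO, a 2.32-fold difference (1.21 ± 0.29, adjusted p 0.554). The 76 flanking copies were level, at -0.15 ± 0.28, and the ratio was 2.60-fold higher (exact permutation p 0.2, n = 3 and 2, adjusted p 0.444). In IAPLTR2a2_Mm the isolated copies showed no such difference (-0.23 ± 0.31). Isolated copies are few and sparsely read in the IAPLTR1 subfamilies, where no ratio was tested. In IAPLTR1_Mm the log2 fold change was 1.07 ± 0.69 for 32 isolated and 1.37 ± 0.26 for 678 flanking copies, and in IAPLTR1a_Mm 2.17 ± 0.76 for 31 isolated and 0.33 ± 0.21 for 390 flanking copies (edgeR adjusted p 0.941, 0.333, 0.885 and 0.941).

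In dKO over Dnmt3C KO the isolated copies were lower by 1.28 ± 0.52 on the log2 scale in IAPLTR2_Mm and by 1.31 ± 0.36 in IAPLTR2a, and the flanking copies by 0.83 ± 0.26 and 0.71 ± 0.36, each with an edgeR adjusted p of 0.675. Without dKO replicate 1 the isolated IAPLTR2_Mm value was -2.33, and with scaling to equal germ cell markers it was -0.67. The ratio of isolated to flanking reads was lower in every dKO than in every Dnmt3C KO library for IAPLTR2a and IAPLTR2b, by 0.70 and 1.17 on the log2 scale (exact permutation p 0.1 each, n = 3 and 3, the smallest possible, adjusted p 0.444). For IAPLTR2_Mm this difference was -0.75 with overlapping groups (exact permutation p 0.3, n = 3 and 3, adjusted p 0.600).

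**Figure D3:**
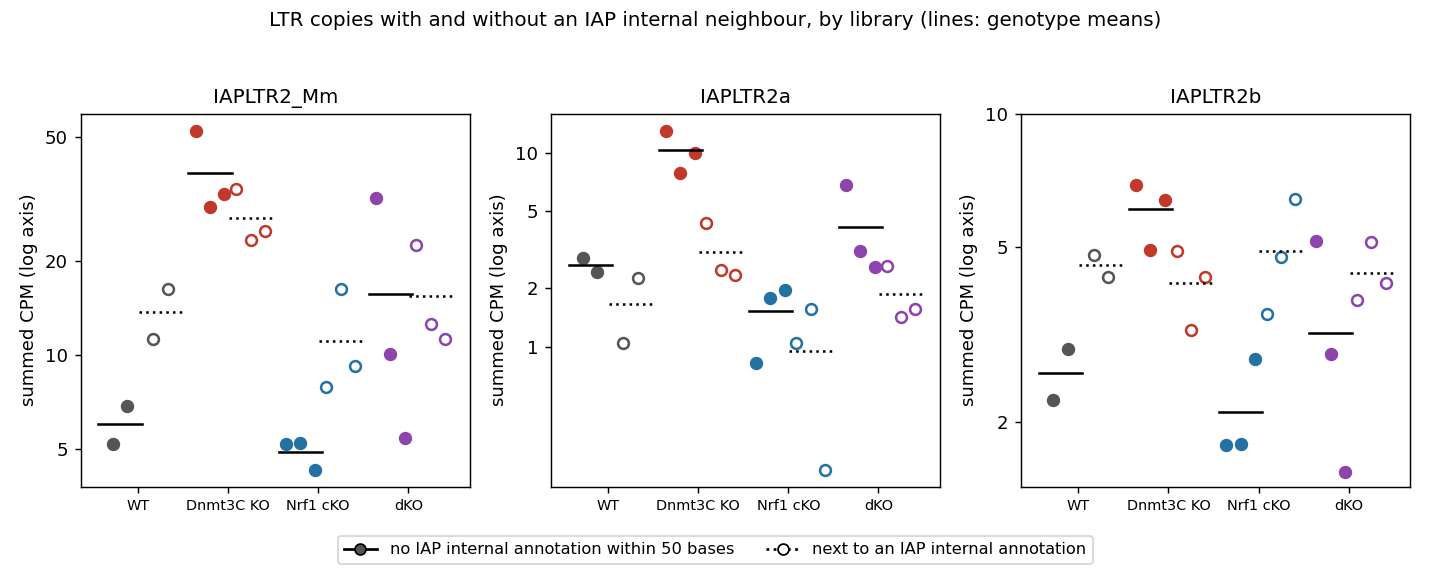
Summed CPM of isolated LTR copies (filled points, solid lines at genotype means) and of copies next to an IAP internal sequence (open points, dotted lines) for IAPLTR2_Mm, IAPLTR2a and IAPLTR2b in each library, on log axes. In WT the isolated IAPLTR2_Mm copies lie below the flanking ones, and in the 3 Dnmt3C KO libraries they lie above them.

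Within proviruses, both ends were read. In IAPLTR1_Mm the 344 5′ LTRs took 7974 reads and the 331 3′ LTRs 9952 over all libraries, and in IAPLTR2_Mm the 141 5′ LTRs took 1483 and the 175 3′ LTRs 4975. In IAPLTR1a_Mm the order was turned, with 2311 reads on 196 5′ LTRs and 1665 on 190 3′ LTRs. Both LTRs of a provirus are near-identical, so that reads can be shared between them and these shares are uncertain.

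Per library, 548 and 503 IAPLTR copies were above 0 in WT, 1264, 1017 and 866 in Dnmt3C KO, 342, 460 and 397 in the Nrf1 cKO libraries and 1057, 647 and 510 in dKO. As a share of all TE copies detected in the same library these were 0.265% and 0.307%, 0.590% to 0.664%, 0.303% to 0.347% and 0.319% to 0.515%. IAPLTR2_Mm alone had 105 copies above 0 in each WT library, 288 to 404 in Dnmt3C KO, 65 to 84 in the Nrf1 cKO libraries and 124 to 314 in dKO. The share of all copy reads on IAPLTR copies was 0.349% and 0.342% in WT, 0.727% to 1.02% in Dnmt3C KO, 0.380% to 0.439% in Nrf1 cKO and 0.349% to 0.645% in dKO.

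Copy by copy, LTRs seen in every Dnmt3C KO library and in no WT library numbered 175 of the 2242 with a read in either genotype (7.81%), against 0.828% of all TE copies, and the opposite pattern held for 23 (1.03%), against 2.47%. In dKO over Dnmt3C KO, 3 of 2479 (0.121%) were read in every dKO and no Dnmt3C KO library, against 0.569%, and 40 (1.61%) the other way round, against 0.401%. In dKO over Nrf1 cKO, 32 of 1860 (1.72%) were read in every dKO and no Nrf1 cKO library, against 1.16%, and 0 the other way round, against 0.188%. In Nrf1 cKO over WT, 7 of 1269 (0.552%) were read in every Nrf1 cKO and no WT library, against 0.356%, and 39 (3.07%) the other way round, against 4.03%. A copy entered the tests below with at least 1 TPM in 2 libraries, which the higher genotype alone can supply, so that counts of tested copies lean towards that genotype. The limma test on log2(TPM + 1) called 0 IAPLTR copies at an adjusted p of 0.01 in each of the 4 comparisons, where 0.00122%, 0%, 0.0183% and 0.0126% of all copies were called in Dnmt3C KO over WT, Nrf1 cKO over WT, dKO over Nrf1 cKO and dKO over Dnmt3C KO. At an unadjusted p under 0.05, 86 of 594 tested copies (14.5%) lay higher and 3 (0.505%) lower in Dnmt3C KO over WT, against 1.46% and 3.58% of all copies. In dKO over Dnmt3C KO 1 of 718 (0.139%) was higher and 40 (5.57%) were lower, against 1.86% and 1.76%. In dKO over Nrf1 cKO 6 of 430 (1.4%) were higher and 1 (0.233%) was lower, against 2.38% and 1.48%, so both shares were below those of all copies. In Nrf1 cKO over WT 8 of 261 (3.07%) were higher and 6 (2.3%) lower, against 1.12% and 6.91%. The edgeR test on whole reads recovered from the TPM called 0 copies in each comparison as well.

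The most clear-cut set were 32 copies with at least 5 reads in every Dnmt3C KO library and 0 in both WT libraries, a pattern held by 1.43% of IAPLTR copies and 0.0402% of all TE copies, while the opposite pattern was held by 0 IAPLTR copies and 0.028% of all. These copies were chosen by their Dnmt3C KO and WT reads, so those reads are a description, and the rule favours high Dnmt3C KO values. They comprise 19 IAPLTR2_Mm, 9 IAPLTR1_Mm, 2 IAPLTR2a, 1 IAPLTR1a_Mm and 1 IAPLTR2b copies on 17 chromosomes, 22 of them isolated, and 21 intergenic, 10 intronic and 1 exonic. Of the 9 IAPLTR1_Mm copies, 7 are 5′ LTRs of annotated proviruses. Together they had 760, 439 and 432 reads in Dnmt3C KO. The genotypes not used for the choice gave 10, 3 and 8 reads in Nrf1 cKO and 409, 85 and 25 in dKO. In Nrf1 cKO 23 of the 32 had 0 reads in all 3 libraries, and in the dKO libraries 30, 22 and 13 of them had a read, with 9 read in all 3. In 2 of the 32 copies dKO replicate 1 had more reads than every Dnmt3C KO library.

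Some single copies of this set follow, chosen after their values were seen. IAPLTR1_Mm_dup1024 (chr11:51669882-51670218, minus strand, GRCm38), an intergenic 5′ LTR, had 0 and 0 reads in WT, 106, 45 and 32 in Dnmt3C KO, 4, 1 and 1 in the Nrf1 cKO libraries and 51, 15 and 3 in dKO. IAPLTR2_Mm_dup536 (chr7:14220356-14220842, minus strand), an isolated intergenic LTR near the sulfotransferase gene Sult2a6, had 50, 25 and 25 reads in Dnmt3C KO, 0 in all WT and Nrf1 cKO libraries and 18, 6 and 1 in dKO. IAPLTR2_Mm_dup1157 (chr14:116267364-116267854, minus strand), isolated and antisense in an intron of the glypican gene Gpc5, had 39, 17 and 27 reads in Dnmt3C KO and 13, 4 and 0 in dKO, with 0 elsewhere. IAPLTR1_Mm_dup961 (chr10:80976038-80976389, plus strand), a 5′ LTR antisense in an intron of the G protein subunit gene Gng7, had 36, 31 and 23 reads in Dnmt3C KO and 16, 0 and 0 in dKO, again with 0 elsewhere. The isolated LTR IAPLTR2a_dup540 (chr15:20745917-20746307, minus strand) had 10, 20 and 30 reads in Dnmt3C KO, 1, 1 and 0 in the Nrf1 cKO libraries and 9, 0 and 2 in dKO. Both copies in which dKO replicate 1 exceeded Dnmt3C KO lie in introns. IAPLTR1_Mm_dup1041 (chr11:74545010-74545396, plus strand), a 3′ LTR antisense in Rap1gap2, had 18, 23 and 21 reads in Dnmt3C KO, 0, 1 and 1 in the Nrf1 cKO libraries and 41, 3 and 0 in dKO. IAPLTR2_Mm_dup348 (chr5:5118690-5119146, minus strand), isolated and in sense in Cdk14, had 22, 11 and 15 reads in Dnmt3C KO, 0 in Nrf1 cKO and 26, 2 and 0 in dKO. In each of these examples dKO replicate 3 had at most 3 reads.

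**Figure D4:**
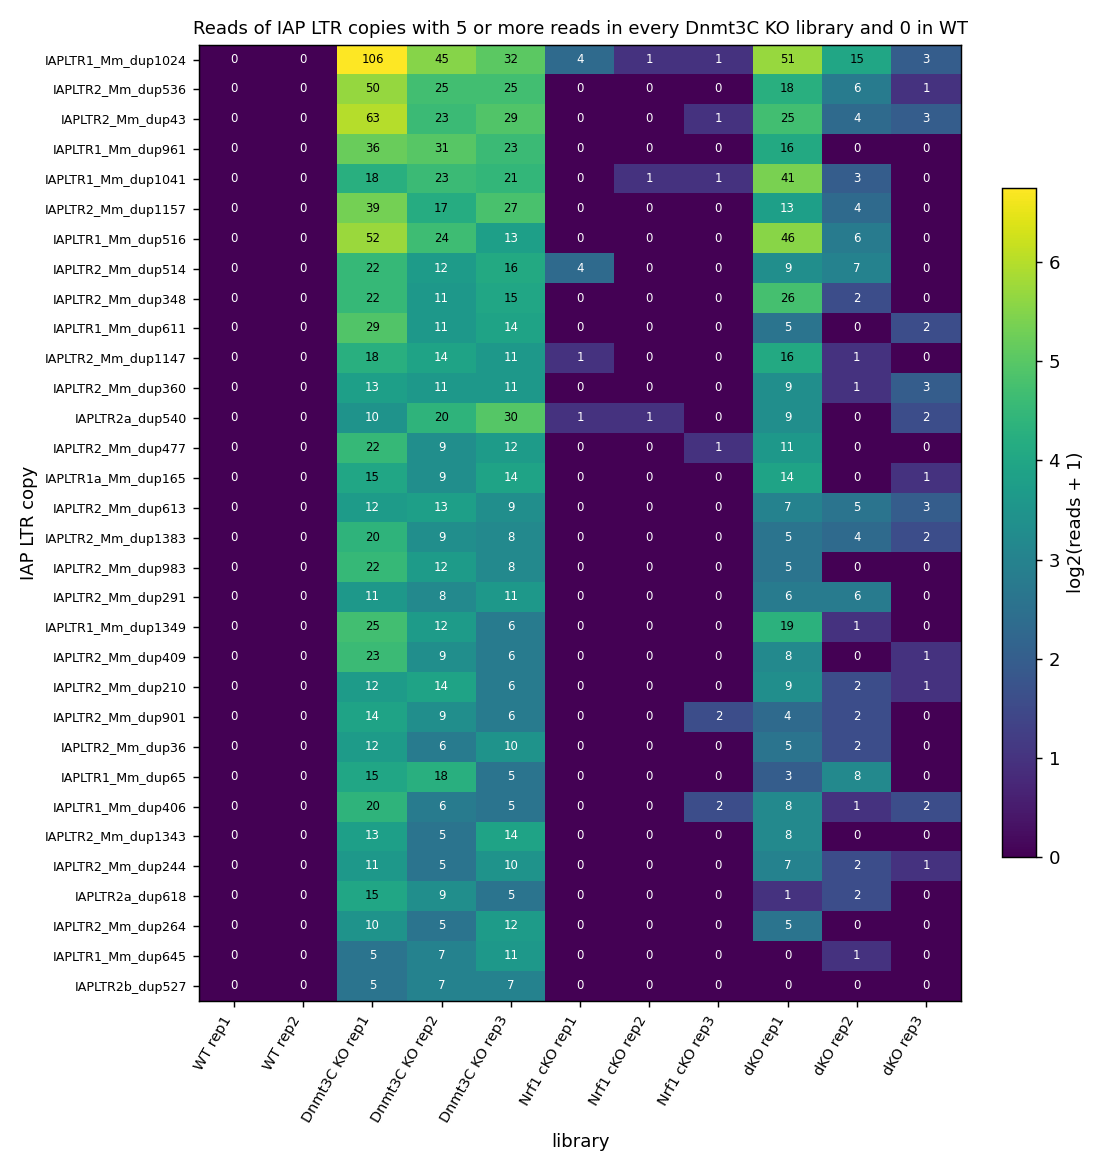
Reads, as log2(reads + 1), of the 32 IAPLTR copies with at least 5 reads in every Dnmt3C KO library and 0 in WT, with copies in rows and the 11 libraries in columns. The Dnmt3C KO and WT columns follow from the choice of copies. The Nrf1 cKO columns are nearly empty, with 3 to 10 reads in all, and the dKO columns go from 409 reads in replicate 1 to 25 in replicate 3.

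Outside this set, IAPLTR2a_dup48 on chromosome 2 had the smallest adjusted p of any IAPLTR copy in dKO over Dnmt3C KO. It had 4 and 5 reads in WT, 58, 40 and 67 in Dnmt3C KO, 1, 1 and 0 in the Nrf1 cKO libraries and 9, 12 and 7 in dKO, with a limma log2 difference of -2.44 ± 0.64 (adjusted p 0.179). All 3 dKO libraries were below the lowest Dnmt3C KO library. The copies whose sequences are printed were not alike in their reads. IAPLTR2_Mm_dup901, with the C8T site, had 0 and 0 reads in WT, 14, 9 and 6 in Dnmt3C KO, 0, 0 and 2 in the Nrf1 cKO libraries and 4, 2 and 0 in dKO. IAPLTR2_Mm_dup1366, which carries the same substitution, had 7 and 6 reads in WT, 13, 11 and 13 in Dnmt3C KO, 7, 5 and 6 in the Nrf1 cKO libraries and 4, 3 and 4 in dKO. Both copies hold the site, and only the first had no read in WT. IAPLTR1_Mm_dup572, with C8A, had 49 and 50 reads in WT, 23, 5 and 20 in Dnmt3C KO, 13, 86 and 2 in the Nrf1 cKO libraries and 41, 16 and 13 in dKO, so that both WT libraries were above every Dnmt3C KO and dKO library, and the Nrf1 cKO libraries lay on both sides. IAPLTR2a_dup27 had 0 and 1 reads in WT, 8, 5 and 9 in Dnmt3C KO, 0, 0 and 1 in the Nrf1 cKO libraries and 3, 0 and 6 in dKO, and IAPLTR1a_Mm_dup1453 had 9 reads in all.

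To set IAP LTRs against another ERVK element in the same library, counts were divided by those of RLTR10C, the LTR of MMERVK10C, which had 11.4 and 8.73 CPM in WT, 46.9, 26.9 and 28.0 in Dnmt3C KO, 6.31, 11.1 and 11.5 in the Nrf1 cKO libraries and 36.7, 27.9 and 21.1 in dKO. IAPLTR2a had 0.392, 0.412 and 0.466 counts per RLTR10C count in Dnmt3C KO and 0.285, 0.182 and 0.218 in dKO. IAPLTR2_Mm had 1.90, 2.05 and 2.15 in Dnmt3C KO and 1.55, 0.865 and 0.854 in dKO. Both were lower in every dKO than in every Dnmt3C KO library, and this ratio does not change with the scaling of a library.
The mean log2 ratio of IAPLTR2a in the 3 Dnmt3C KO libraries was -1.24 ± 0.13 (SD), that of the 3 dKO libraries -2.16 ± 0.33, and the dKO level was 0.530-fold with an exact two-sided permutation p of 0.1, the smallest that 3 against 3 allows. IAPLTR2_Mm was 0.515-fold (exact permutation p 0.1, n = 3 and 3) and IAPLTR1_Mm 0.748-fold with overlapping groups (exact permutation p 0.3, n = 3 and 3), its ratios being 2.37, 2.55 and 2.39 in Dnmt3C KO and 2.24, 1.07 and 2.51 in dKO. IAPLTR1a_Mm, at 0.360 to 0.519 in Dnmt3C KO and 0.412 to 0.601 in dKO, overlapped. In WT the ratios of IAPLTR2a were 0.388 and 0.606 and in Nrf1 cKO 0.218 to 0.338. The IAPLTR2a difference held against RLTR10B2 (-1.06), which had 1.61 and 2.15 CPM in WT, 4.20 to 8.03 in Dnmt3C KO and 3.96 to 6.09 in dKO, whereas RLTRETN_Mm, the LTR of ETn elements, stayed between 8.52 and 15.4 CPM in all 11 libraries.

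**Figure D5:**
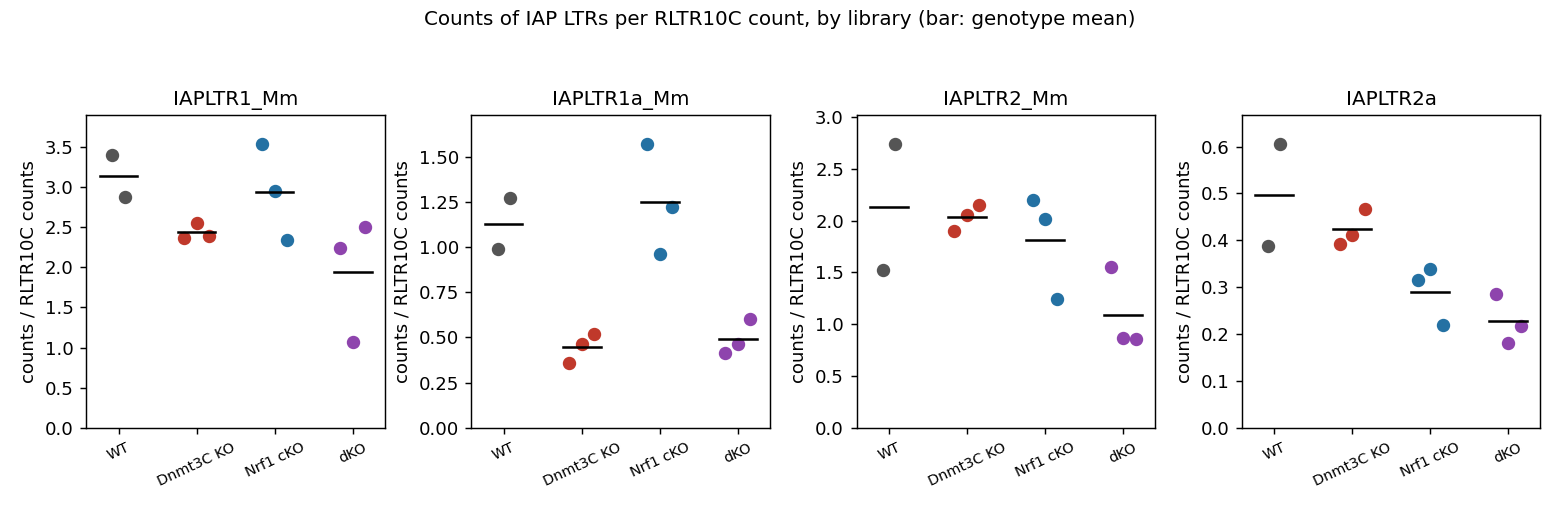
Counts of IAPLTR1_Mm, IAPLTR1a_Mm, IAPLTR2_Mm and IAPLTR2a per count of RLTR10C in each library, by genotype, with a bar at the genotype mean and axes from 0. For IAPLTR2_Mm and IAPLTR2a the 3 dKO libraries lie below the 3 Dnmt3C KO libraries, and for IAPLTR1_Mm and IAPLTR1a_Mm they overlap.

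The 10 copies with the highest mean TPM were not those that were silent in WT. The highest, IAPLTR4_I_dup104 (chr7:106264159-106264315, plus strand, intergenic), had a mean of 121 TPM, with 61 and 79 reads in WT, 64 to 116 in Dnmt3C KO, 34 to 148 in the Nrf1 cKO libraries and 43 to 90 in dKO. IAPLTR1_Mm_dup161 (chr2:84510087-84510421, plus strand), a 3′ LTR antisense in an intron of Gm13710, had a mean of 92.2 TPM, with 75 and 37 reads in WT, 203, 130 and 206 in Dnmt3C KO, 62, 170 and 80 in the Nrf1 cKO libraries and 218, 25 and 231 in dKO. IAPLTR2_Mm_dup335 (chr4:141207607-141208082, minus strand), the 3′ LTR of an IAPEz provirus near Fbxo42, had 120 and 157 reads in WT, 152 to 276 in Dnmt3C KO, 74 to 198 in the Nrf1 cKO libraries and 57 to 120 in dKO. The dKO reads of this last copy did not exceed WT. The remaining 7 were IAPLTR4_dup156, IAPLTR2_Mm_dup153 and the IAPLTR1_Mm copies dup1054, dup1055, dup571, dup261 and dup262, at 39.2 to 69.9 TPM. The pairs dup1054 and dup1055 in Kcnh6 and dup261 and dup262 in Mbnl1 are both ends of a provirus antisense in an intron, so their reads are not independent. The copies most like IAPLTR4_I_dup104 in log2(TPM + 1) over the 11 libraries were IAPLTR3-int_dup1616, IAPLTR2_Mm_dup206 and IAPLTR1_Mm_dup1302, with Pearson r of 0.86, 0.79 and 0.75, on 15, 5 and 26 reads in all.

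None of the genes for IAP silencing and LTR-binding factors passed the test. In a list of 29, edgeR called 0 in every comparison, and few reached an unadjusted p under 0.05. These were 1 higher and 1 lower in Dnmt3C KO over WT, against 2.58% and 2.37% of all genes, and 1 and 4 in Nrf1 cKO over WT, against 1.6% and 3.2%. The 4 were the piRNA pathway genes Tex15 (-1.76 ± 0.44), Mael (-1.30 ± 0.27) and Piwil2 (-0.86 ± 0.35) and the chromatin remodeller gene Hells (-0.91 ± 0.18), with edgeR adjusted p of 0.735, 0.606, 0.852 and 0.581, beside the lower germ cell marker sums given above. In dKO over Nrf1 cKO they were 1 and 0, against 1.62% and 0.9%, and in dKO over Dnmt3C KO 0 and 1, against 3.1% and 4.23%. Trim28, the corepressor that recruits histone methylation to IAPs, had log2 fold changes of 0.17 ± 0.20 in Dnmt3C KO over WT and 0.05 ± 0.16 in dKO over Dnmt3C KO. Setdb1, the H3K9 methyltransferase that works with it, had -0.09 ± 0.16 and 0.20 ± 0.13, and Creb1, a factor that binds the response element, -0.14 ± 0.14 and 0.12 ± 0.11. Nrf1 itself had -0.06 ± 0.16 in Nrf1 cKO over WT and Dnmt3c -0.25 ± 0.28 in Dnmt3C KO over WT.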

How the data were processed

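Per the study's methods, the authors aligned paired-end reads of stranded poly-A libraries to GRCm38 with STAR 2.7.3a, keeping up to 100 alignments per read, and shared multi-mapping reads among copies. They deposited raw counts per gene and TE subfamily for each pair of genotypes, and TPM per TE copy, scaled by the authors to the TE copies of a library without genes. Columns of the authors' own DESeq2 1.44.0 comparisons in the same tables (mean normalized counts, fold changes, statistics and p-values) were not used. The 6 count tables were joined (0 values differed between them), and CPM are scaled by TMM over 11 libraries.

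Counts were tested by the edgeR quasi-likelihood test (4.0.16, filterByExpr, TMM) in each pair of genotypes, with Benjamini-Hochberg adjustment over all features at 0.01, and the interaction over all libraries. Copies were tested by limma-trend (3.58.1, robust) on log2(TPM + 1), pseudocount 1, at 1 TPM or more in 2 libraries of the comparison, and whole reads were recovered from the TPM (100% whole within 0.01). Ratios were compared by exact permutation. Multi-mapping assigns reads among near-identical copies by estimate, so single-copy values are less certain than subfamily sums. Isolated LTRs were defined by no IAP internal annotation within 50 bases, and also within 1000. Starts of copies were read as 0-based and are printed 1-based. Gene locations come from GENCODE M21 and sequences from RefSeq on GRCm38.p6. Scripts were tested on simulated data. Alternatives included other filters, thresholds, pseudocounts, DESeq2 1.42.0, scaling to germ cell markers, a replicate block and leaving out each library.

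Named were all IAPLTR subfamilies, the 10 copies with the highest mean TPM, up to 5 copies past the threshold per comparison (there were 0), the 3 copies most like the top copy, 6 comparator elements and a list of silencing genes. The 32 copies with 5 or more reads in every Dnmt3C KO and 0 in each WT library, single examples among them, IAPLTR2a_dup48 and the division into isolated and flanking LTRs were chosen after their values were seen. The members and lists were chosen with earlier results of these data known.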

Additional observations from a re-analysis of the deposited data

Results flagged for a closer look

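For IAPLTR3 the mean differences under the loss of DNMT3C with and without Nrf1 had opposite signs. Every Dnmt3C KO library was below the WT mean (0.311 to 0.415 against 0.428 and 0.478 CPM). Every dKO library was above the Nrf1 cKO mean (0.242 to 0.311 against 0.0542 to 0.214 CPM). These effects differ by 1.63 on the log2 CPM scale. In the edgeR interaction test this difference was 1.62 ± 0.82 with an unadjusted p of 0.0686 and an adjusted p of 0.903, in a comparison in which 28.5% of all TE subfamilies were higher at an unadjusted p under 0.05. It rests on 7, 2 and 2 counts in the Nrf1 cKO libraries. Dnmt3C KO over WT alone gave -0.33 ± 0.54 (edgeR unadjusted p 0.560), beside a median of -0.34 over all TE subfamilies. In dKO over Nrf1 cKO, IAPLTR3 did not pass the filter on low counts, so neither direction was shown by a test.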

How the results depend on the processing

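For Dnmt3C KO over WT, 3 subfamilies were called without a filter on low counts, with a replicate block, by DESeq2 and on summed TPM, with 111 of 32282, 131 of 21664, 25 of 32282 and 9 of 1105 features called in all, and 0 to 1 when a library was left out, the 1 being IAPLTR2_Mm without Dnmt3C KO replicate 3. Copies called in that comparison numbered 1 at an adjusted p of 0.05 (13 of all 163805), 1 without a filter on low values (39 of 428233), 5 with a replicate block (162 of 163805), and 0 to 4 when a library was left out, with 4 without WT replicate 1 (88 of 133026) and 2 without WT replicate 2 (73 of 139035), where the lone WT library is assumed to vary like the Dnmt3C KO libraries. The replicate numbers showed no clear pairing, as only 4 of 15 same-number correlations exceeded 0.1 and 3 libraries correlated best with their own number. Correlations of the WT replicates 1 and 2 are exact opposites of each other by construction, so this check cannot exclude pairs of littermates. The numbers are those of the sample titles, and in the descriptions the third Dnmt3C KO and dKO libraries carry other numbers. The median library had 548 IAPLTR copies above 0 and 298 at 1 TPM or more. The exact NRF1 palindrome was found in 0 of the windows over IAP LTR copies.

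Directions turned in Nrf1 cKO over WT to 1.12 (IAPLTR1_Mm), 0.97 (IAPLTR2_Mm) and 0.48 (IAPLTR2a) with scaling to equal germ cell markers, and to 0.40 (IAPLTR1_Mm) and 0.27 (IAPLTR2_Mm) on summed TPM. In dKO over Dnmt3C KO the same scaling gave 0.29 for IAPLTR1_Mm and 0.12 for flanking IAPLTR2a copies, and in dKO over Nrf1 cKO -0.36 for flanking IAPLTR2_Mm copies, where the median gene moved to -0.64. Leaving out a library gave -0.52 to 0.14 for IAPLTR1_Mm in Nrf1 cKO over WT, -0.027 to 0.66 for IAPLTR2a in dKO over WT, -0.74 to 0.044 for its interaction, and -0.29 to 0.0086 for flanking IAPLTR2b copies in Dnmt3C KO over WT. The ratio of IAPLTR2a to RLTR10C ranged from -1.09 to -0.76 when a library was left out. The cause of these changes was not tested. All other alternatives kept direction and side of the threshold (222 planned and 122 added for single results) or brought a result past it (13 and 9), among them isolated IAPLTR2_Mm copies in Dnmt3C KO over WT at 2.35 with germ cell scaling (adjusted p 8.0e-06) and 2.36 to 2.89 without a library. The motif could not be searched over all copies, and counting error limits copies with few reads.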
